A study of Mus musculus with 18 samples.

Results

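Dusp1, Dusp2, Dusp4, Dusp5, Dusp6, Dusp16, Spry1, Spry2, Spred1 and Spred2 encode negative regulators of mitogen-activated protein kinase (MAPK) signaling. They were taken from the RNA-seq table by gene symbol, and all 10 were found among its 20298 genes. The table holds 18 libraries in 6 groups of 3, all from C57BL/6 mice, either wild type (WT) or STAT5 tetramer-deficient (DKI). DKI mice are double knock-in mice whose STAT5A and STAT5B cannot assemble into tetramers, and they carry the change in every cell, not in monocytes alone. Ly6C+ CCR2+ monocytes were enriched from bone marrow and were either harvested untreated on day 0 or cultured with 20 ng/mL GM-CSF, a growth factor that drives monocytes to differentiate, for 3 or 6 days. The cultured cells are called monocyte-derived cells (MDCs). The day 0 groups therefore differ from the MDC groups in culture as well as in GM-CSF, and there were no cultures without GM-CSF. The comparisons asked how these genes changed as monocytes became MDCs, and which of them differed between WT and DKI cells.

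GM-CSF binding activates JAK2, which drives both STAT5 and, through RAS, the kinase ERK. ERK and the related kinases JNK and p38 are held in check by proteins whose genes MAPK signaling itself often induces, so that these genes form feedback loops. Dual-specificity phosphatases (DUSPs, here also called MAPK phosphatases) remove the activating phosphates from the kinases, whereas Sprouty and Spred proteins act further upstream, between the receptor, RAS and RAF. Transcript levels of these genes do not report kinase activity.

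Values are RPKM, in which read counts are scaled to the length of the gene and the depth of the library, so levels can be compared between genes. A gene was fitted when its mean was above 2 RPKM in at least one compared group, and it was called when limma gave a Benjamini-Hochberg adjusted p below 0.05 over all fitted genes together with a change of over 1.5-fold. Log2 fold changes are on the log2(RPKM + 1) scale, which understates changes of low genes. Depth, estimated from the step that 1 read makes in short single-exon genes, was 29500000 to 43200000 reads a library, and a gene of 1 kb with 3 reads would therefore stand at no more than 0.1017 RPKM. The median log2 difference of all genes between DKI and WT was -0.11 on day 3 and -0.17 on day 6. Although the labels name the liver as the tissue, the summed level of 8 hepatocyte markers (among them Alb, Apoa1 and Ttr) was at most 0.0763 RPKM in any library, against 11148 RPKM or more for 8 monocyte and myeloid markers on day 0. The level of Stat5a or Stat5b cannot check the genotype, since the knock-in alters the protein. In bulk RNA, a smaller share of cells of a type and less RNA per cell cannot be told apart.

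On day 0 the levels of these genes in WT and DKI monocytes overlapped for all 10. Dusp1, a nuclear phosphatase that acts on p38, JNK and ERK, stood highest, at 131 ± 21 RPKM in WT against 132 ± 14 RPKM in DKI (mean ± SD, n = 3). Its lowest library lay above the highest library of the next gene, Dusp2. Dusp2, Dusp16, Spred1, Dusp5, Spry2, Dusp6, Spred2 and Dusp4 followed in WT, with means between 23.5 and 7.25 RPKM, and each overlapped its neighbor in that order. Spry1 was lowest, with 1.28 ± 0.82 RPKM in WT against 1.09 ± 0.62 RPKM in DKI.

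Of the 9 genes fitted on day 0, limma called 0 between DKI and WT, and 0 had an unadjusted p under 0.05. Among all 9179 fitted genes 0 were called (0 percent), with 44 at an unadjusted p under 0.05. The log2 differences of the 9 genes lay between -0.13 and 0.08, with a 95% interval from -1.96 to 2.11 for Dusp4 without pairing and from -0.11 to 0.26 with same-numbered libraries paired. The paired intervals of the 9 genes lay between -0.37 and 0.43, and 0 of the 9 were called in that fit, with 0 at an unadjusted p under 0.05. Among all genes the paired fit called 0, with 352 at an unadjusted p under 0.05. Same-numbered WT and DKI libraries of day 0 were very close to each other. Their median absolute log2 difference over genes above 20 RPKM was 0.0620 to 0.0746, against 0.169 or more for the other day 0 pairs. That is still 3.88 to 5.05 times the counting noise estimated from depth and exon length. That estimate covers counting error only.

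The 3 day 0 libraries of each genotype were not alike. The libraries numbered 1 held Dusp16 at 36.0 RPKM in WT against 35.02 RPKM in DKI, whereas the other 4 held 12.1 to 16.1 RPKM. Dusp4 was likewise at 16.5 and 16.1 RPKM in the libraries numbered 1 and at 2.52 to 3.33 RPKM in the others. Dusp6 went the other way, with 3.84 and 3.82 RPKM in the libraries numbered 1 and 8.57 to 20.1 RPKM in the others. Dusp2 and Dusp5 were highest in the libraries numbered 2, at 39.5 and 25.8 RPKM in WT against 37.7 and 35.9 RPKM in DKI. These differences follow the library number and not the genotype.

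**Figure D1:**
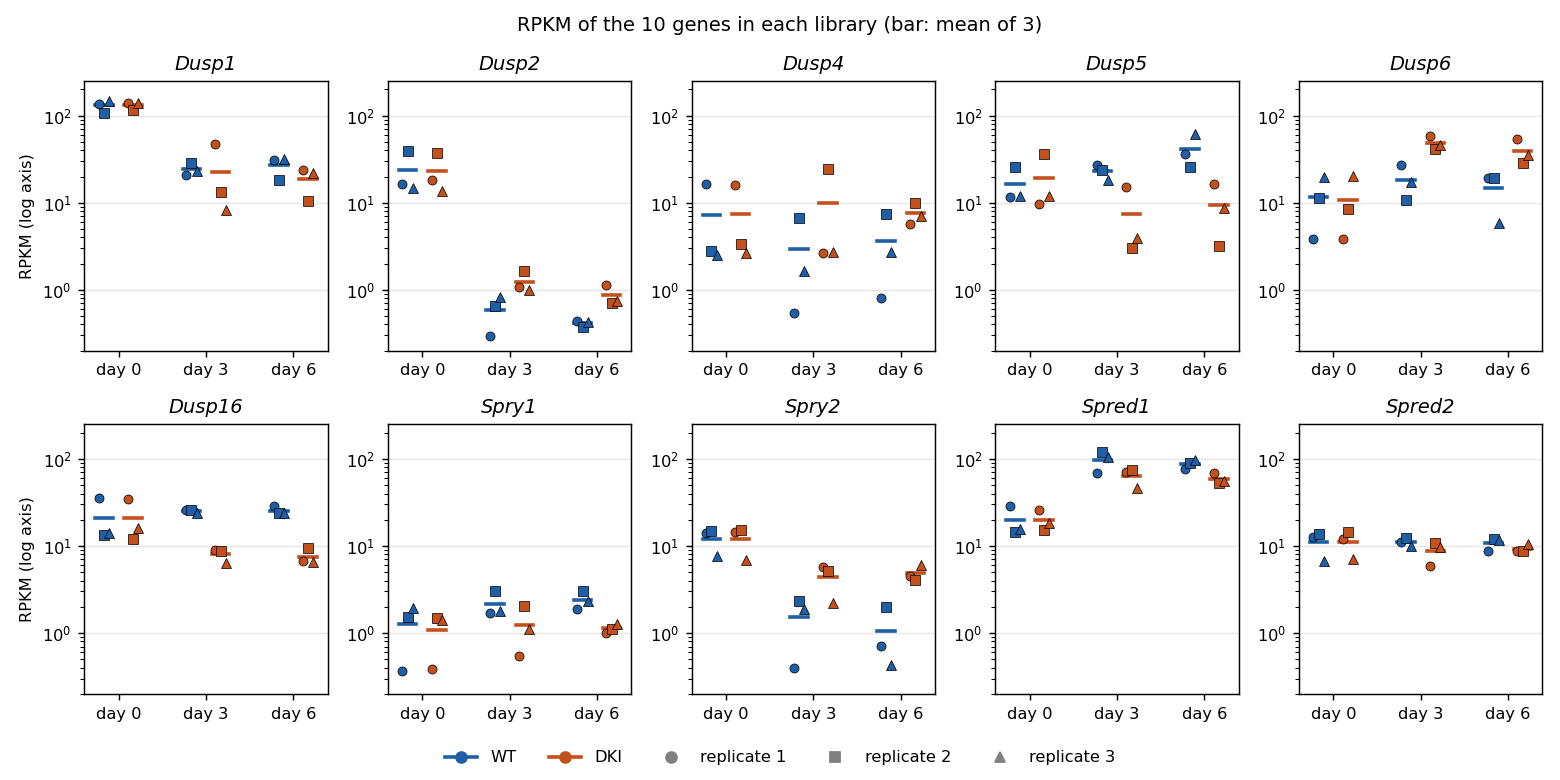
RPKM of each of the 10 genes (log axis) in every library, by day and genotype, with the mean of 3 libraries as a bar and the replicate number as the symbol. WT and DKI lie together on day 0, while on days 3 and 6 Dusp16 and Dusp5 lie lower and Dusp6 lies higher in every DKI library than in any WT library of that day.

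The sequences before the transcription start are shown for Dusp16, Dusp6, Dusp5 and Dusp1. The first of these are the fitted members whose levels did not overlap between genotypes on either MDC day, as described next. Dusp1 was the most abundant of the genes in monocytes. Dusp2 did not overlap either, but was too low in MDCs to be fitted. The share of all genes without overlap was not counted, so a lack of overlap, here and below, is a description. Each is the 250 bases before the start given by RefSeq (GRCm38.p6, the build of mm10), in the direction of transcription. Capitals mark matches on either strand to the motifs named after them. For Dusp16 the RefSeq start lies inside the span of the gene.
Dusp16, chr6:134792629-134792878, minus strand: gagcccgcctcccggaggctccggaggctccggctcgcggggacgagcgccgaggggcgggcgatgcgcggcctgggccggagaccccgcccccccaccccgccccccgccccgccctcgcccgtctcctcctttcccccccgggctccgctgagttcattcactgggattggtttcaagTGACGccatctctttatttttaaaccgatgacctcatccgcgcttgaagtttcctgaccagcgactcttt
Dusp6, chr10:99262981-99263230, plus strand: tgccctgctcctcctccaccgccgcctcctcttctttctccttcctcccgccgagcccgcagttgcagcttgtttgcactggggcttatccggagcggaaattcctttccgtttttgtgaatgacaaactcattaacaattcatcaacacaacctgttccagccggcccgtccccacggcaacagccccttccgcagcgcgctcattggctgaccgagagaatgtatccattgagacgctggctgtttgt
Dusp5, chr19:53528895-53529144, plus strand: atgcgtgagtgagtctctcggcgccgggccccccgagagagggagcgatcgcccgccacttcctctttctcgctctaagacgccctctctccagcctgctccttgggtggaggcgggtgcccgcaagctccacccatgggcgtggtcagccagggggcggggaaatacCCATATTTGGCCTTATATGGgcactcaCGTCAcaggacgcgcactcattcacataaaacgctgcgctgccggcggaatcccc
Dusp1, chr17:26508473-26508722, minus strand: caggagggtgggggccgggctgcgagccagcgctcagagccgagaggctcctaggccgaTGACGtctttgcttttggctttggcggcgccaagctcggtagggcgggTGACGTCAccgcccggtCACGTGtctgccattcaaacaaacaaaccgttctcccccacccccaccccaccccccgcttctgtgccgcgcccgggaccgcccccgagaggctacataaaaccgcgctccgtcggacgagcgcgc

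Motifs were searched on both strands in a window of 300 bases, from 250 before the start to 50 after it, in 9 of the 10 genes. Dusp4 was not analysed here. The STAT site GAS (TTCNNNGAA) was in 0 of the 9 windows and in 8.3 percent of 32851 windows of all genes. Only this consensus was searched, whereas the paper states that STAT5 tetramers can use weaker, non-consensus GAS motifs at suitable spacing. Such sites, and any outside the window, were not searched, so the count does not show that these genes lack them. The AP-1 site (TGANTCA) was in 0 of 9, against 7.81 percent. The cyclic AMP response element (TGACGTCA) was in 1 of 9, Dusp1, 143 bases before the start, against 1.79 percent. Its shorter core of 5 bases (TGACG), which the full element contains on both strands, was in 5 of 9, including Dusp16 at 70 bases and Dusp5 at 55 bases before the start, against 20.81 percent. The E-box (CACGTG) was in 2 of 9, Dusp1 and Dusp2, against 7.15 percent. The CArG box, the site of serum response factor, was in 1 of 9, Dusp5, with copies that start 82 and 72 bases before the gene and abut each other, against 1.63 percent. The ETS site (CCGGAA) was in 1 of 9, Spry2, 33 bases after the start, against 14.9 percent. No motif was found in the sequence shown for Dusp6. A match describes letters in the window and not a site in use, and binding in these cells was not analysed here.

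Dusp16 differed most clearly between the genotypes. DUSP16 (MKP-7) is a cytoplasmic phosphatase with a preference for JNK and p38, and the gene lies at chr6:134715468-134807063 (mm10). WT MDCs of day 3 contained 26.02, 26.03 and 23.6 RPKM, against 8.99, 8.71 and 6.35 RPKM in DKI. WT MDCs of day 6 contained 28.4, 24.1 and 24.1 RPKM, against 6.76, 9.38 and 6.54 RPKM in DKI. Every DKI library was thus below every WT library by a wide margin, and the replicates of each MDC group were close to each other. Dusp16 was lower in DKI MDCs by a log2 fold change of -1.55 (SE 0.16, adjusted p = 0.0069) on day 3 and of -1.64 (SE 0.17, adjusted p = 0.00926) on day 6.

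Those calls read as follows against all genes. On day 3, 4.21 percent of the 9740 fitted genes were called lower and 3.21 percent higher in DKI, and Dusp16 was the only 1 of the 9 fitted members to be called. On day 6, 4.82 percent of 9842 genes were called lower and 2.72 percent higher, and 2 of the 9 fitted members were called, Dusp16 lower and Spry2 higher. Spry2 was fitted through its DKI mean alone, and its call was lost with no filter (adjusted p = 0.0723). Dusp16 remained called on day 3 in all 14 alternatives, and its day 6 call was lost in 1 of 14, when replicate 1 of both genotypes, whose names carry the earlier year, was left out (-1.505, adjusted p = 0.11).

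Dusp6 lay at higher levels in DKI. DUSP6 (MKP-3) is a cytoplasmic phosphatase with a strong preference for ERK, and its gene lies at chr10:99263231-99267489. On day 3 it was at 27.0, 10.7 and 17.2 RPKM in WT and at 58.0, 41.5 and 45.9 RPKM in DKI. On day 6 it was at 19.1, 19.4 and 5.87 RPKM in WT and at 54.1, 28.5 and 35.5 RPKM in DKI. The groups did not overlap on either day, although replicates of a group differed widely. The log2 difference was 1.43 (SE 0.33) on day 3, where the adjusted p of 0.0504 missed the threshold, and 1.47 (SE 0.47, adjusted p = 0.102) on day 6. With same-numbered libraries paired, the day 3 difference was called (adjusted p = 0.0363, with 2.7 percent of all genes called higher in that fit) and the day 6 difference was not (adjusted p = 0.0808). Leaving out WT replicate 1 also called the day 3 difference (1.75, adjusted p = 0.0476).

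Set side by side, Dusp6 exceeded Dusp16 in every DKI library of days 3 and 6 and in only 1 of the 6 WT libraries of those days, WT replicate 1 of day 3. The Dusp6 level was 0.412, 0.726 and 1.04 times the Dusp16 level in the WT libraries of day 3 and 0.244, 0.671 and 0.803 times in those of day 6. In DKI the ratio was 4.77, 6.45 and 7.23 on day 3 and 3.04, 5.43 and 8.01 on day 6. On day 0 the ratio spanned 0.107 to 1.42 in WT and 0.109 to 1.25 in DKI, so the genotypes overlapped before culture. Because this pair was put together after the values of both genes were seen, the ratio is a description and was not tested.

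**Figure D2:**
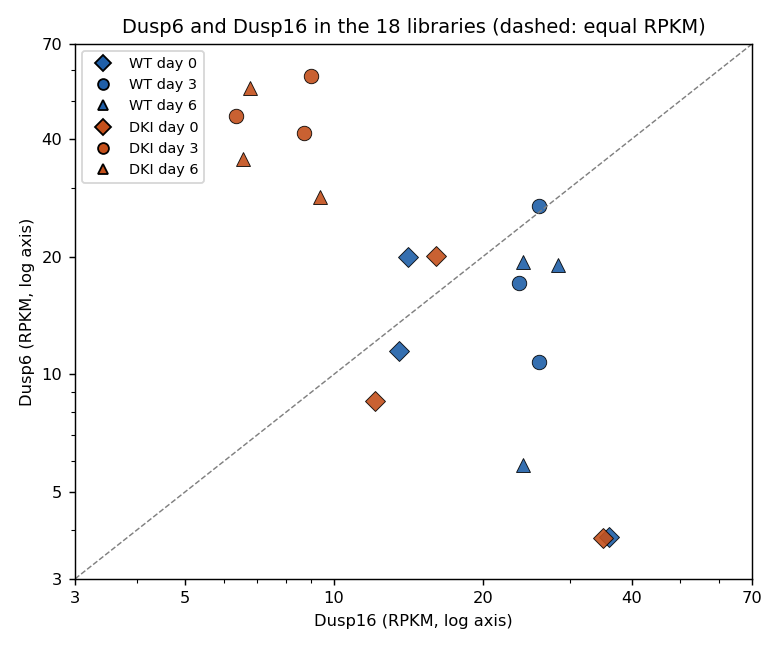
Dusp6 against Dusp16 in the 18 libraries (RPKM, both log axes), with the color giving the genotype, the symbol the day and the dashed line equal levels. All 6 DKI MDC libraries lie in the upper left, with Dusp6 at 28.5 RPKM or more and Dusp16 at 9.38 RPKM or less, apart from the 6 WT MDC libraries, which hold Dusp16 at 23.6 RPKM or more.

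Dusp5 was lower in DKI MDCs in every library. DUSP5 is a nuclear phosphatase specific to ERK, and its gene lies at chr19:53529145-53541809. On day 3 it was at 27.1, 23.7 and 18.1 RPKM in WT and at 15.2, 3.01 and 3.89 RPKM in DKI. On day 6 it was at 36.2, 26.01 and 61.9 RPKM in WT and at 16.5, 3.15 and 8.63 RPKM in DKI. On both days DKI replicate 1 was nearest to WT. The fitted differences were large but did not pass the threshold, at -1.79 (SE 0.52, adjusted p = 0.0946) on day 3 and -2.17 (SE 0.56, adjusted p = 0.0652) on day 6. Pairing same-numbered libraries called the day 6 difference (adjusted p = 0.0479, with 4.41 percent of all genes called lower in that fit), and leaving out DKI replicate 1 called the day 3 difference (-2.42, adjusted p = 0.00755).

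DKI replicate 1 of day 3 also stood apart in other transcripts. The summed level of 14 genes that respond to cell handling, such as Fos, Egr1 and Hspa1a, was 1842 RPKM there, against 718 and 738 RPKM in the other DKI libraries and 609 to 790 RPKM in the WT libraries of day 3. The sum of 8 T and NK cell markers was 59.9 RPKM, against 2.13 to 6.60 RPKM in the other 5 libraries of that day. Most of that sum was Cd4, at 53.2 RPKM, while Cd3e was at most 0.0531 RPKM and Cd8a was listed at 0 in every DKI library of day 3. The same library had the highest macrophage marker sum of the DKI libraries of day 3, 9074 RPKM against 4119 and 3624 RPKM, and the lowest dendritic cell marker sum, 1767 RPKM against 5677 and 6348 RPKM. It held the most Dusp1 of that day and the most Dusp5 and Dusp6 of its group. On day 6 DKI replicate 1 again had the highest macrophage sum, 10112 RPKM against 2388 and 3133 RPKM in its group, and the most Dusp5 and Dusp6 of it. It also again had the highest T and NK cell sum, 64.2 RPKM against 1.93 to 12.6 RPKM in the others, and again Cd4 made up 59.4 RPKM of it, with Cd3e at most 0.0892 RPKM in DKI. Their part in the result was not tested.

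Dusp1 itself was at 21.0, 28.7 and 23.0 RPKM in WT and at 47.0, 13.3 and 8.27 RPKM in DKI on day 3. The WT libraries were close together, whereas DKI libraries lay on both sides of them. The difference was -0.44 (SE 0.58, adjusted p = 0.669), and without DKI replicate 1 it was -1.12 (adjusted p = 0.0491). On day 6 Dusp1 was at 30.7, 18.1 and 32.2 RPKM in WT and at 24.0, 10.6 and 22.1 RPKM in DKI, lower in DKI in 3 of 3 same-numbered pairs but with overlapping groups (-0.53, SE 0.36, adjusted p = 0.376).

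Dusp2 and Dusp4 both encode nuclear phosphatases. Dusp2 was at 0.298 to 0.826 RPKM in WT and at 0.992 to 1.65 RPKM in DKI on day 3, and at 0.374 to 0.442 RPKM in WT against 0.713 to 1.13 RPKM in DKI on day 6. The DKI libraries were above the WT libraries on both days without overlap, but the gene was under the filter of 2 RPKM and was not fitted. Dusp4 was at 0.537, 6.70 and 1.63 RPKM in WT and at 2.66, 24.7 and 2.71 RPKM in DKI on day 3, and at 0.813, 7.47 and 2.75 RPKM in WT against 5.66, 10.03 and 7.13 RPKM in DKI on day 6. Within each pair of the same number Dusp4 was higher in DKI, in 3 of 3 pairs on each day, while the WT libraries of day 3 ranged from 0.537 to 6.70 RPKM. Neither the day 3 value of 1.16 (SE 0.92, adjusted p = 0.463) nor the day 6 value of 1.13 (SE 0.55, adjusted p = 0.229) passed the test. With same-numbered libraries paired the SE was 0.28 on day 3 and 0.31 on day 6, and the adjusted p of 0.0922 and 0.0899 still missed the threshold. The libraries numbered 2 of day 3, where Dusp4 was highest, also had the highest summed level of 10 neutrophil markers, at 4697 RPKM in the WT library and 3715 RPKM in the DKI library, against 272 to 2195 RPKM in the others. In 5 of the 6 groups the library with the highest neutrophil sum also had the highest Dusp4, the exception being DKI of day 6, where replicate 1 had the highest sum (3429 RPKM) and the lowest Dusp4. Of the neutrophil markers fitted, 1 of 10 was called between genotypes on day 3 (Retnlg, log2 fold change 2.49) and 0 of 10 on day 6. Of all fitted genes 3.21 percent and 2.72 percent were called higher in DKI on these days. The median log2 difference of the 10 neutrophil markers was nevertheless 1.77 on day 3 and 0.73 on day 6, against -0.11 and -0.17 for all fitted genes. Their part in the result was not tested.

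Spry2 was higher in DKI MDCs on day 6. SPRY2 is a Sprouty protein, an inhibitor of receptor signaling through RAS and ERK, and its gene lies at chr14:105891947-105896819. On day 3 it was at 0.394, 2.32 and 1.91 RPKM in WT and at 5.76, 5.20 and 2.18 RPKM in DKI, and the groups overlapped (1.10, SE 0.44, adjusted p = 0.172). On day 6 it was at 0.712, 2.00 and 0.427 RPKM in WT and at 4.53, 4.06 and 5.99 RPKM in DKI, without overlap. The day 6 difference of 1.58 (SE 0.32, adjusted p = 0.0389) was called. This call was near the threshold. Spry2 passed the filter of 2 RPKM on day 6 through its DKI mean alone (4.86 RPKM, against 1.05 RPKM in WT). The call was lost with no filter (adjusted p = 0.0723), with the replicate block (adjusted p = 0.0621) and with only libraries named for the later year (adjusted p = 0.217). It was also lost on leaving out WT replicate 1 (1.49, adjusted p = 0.126), WT replicate 3 (1.36, adjusted p = 0.12), DKI replicate 1 (1.62, adjusted p = 0.0796) or DKI replicate 3 (1.45, adjusted p = 0.115).

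Spry1, the other Sprouty gene, did not follow Spry2. It was at 1.69, 3.05 and 1.77 RPKM in WT against 0.551, 2.06 and 1.11 RPKM in DKI on day 3. On day 6 it was at 1.87, 3.06 and 2.31 RPKM in WT against 0.989, 1.12 and 1.28 RPKM in DKI. The day 6 libraries did not overlap, and DKI was the lower group in 3 of 3 same-numbered pairs on both days. At these low levels the differences of -0.53 (SE 0.32, adjusted p = 0.347) and -0.67 (SE 0.22, adjusted p = 0.103) were not called.

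Spred1 and Spred2 encode Sprouty-related proteins that bring neurofibromin to the membrane to switch RAS off. Spred1 had the highest mean of the 10 genes in all 4 MDC groups, although in DKI its libraries overlapped those of Dusp6. On day 3 it was at 68.0, 120.8 and 104.8 RPKM in WT and at 69.8, 74.8 and 46.7 RPKM in DKI. On day 6 it was at 77.5, 90.4 and 97.2 RPKM in WT and at 68.1, 53.0 and 55.9 RPKM in DKI, where every DKI library was below every WT library. The differences were -0.60 (SE 0.29, adjusted p = 0.244) on day 3 and -0.58 (SE 0.17, adjusted p = 0.088) on day 6 and were not called. Spred2 stayed between 5.82 and 12.2 RPKM in all MDC libraries and differed between genotypes by -0.35 (SE 0.23, adjusted p = 0.381) and -0.20 (SE 0.16, adjusted p = 0.464).

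**Figure D3:**
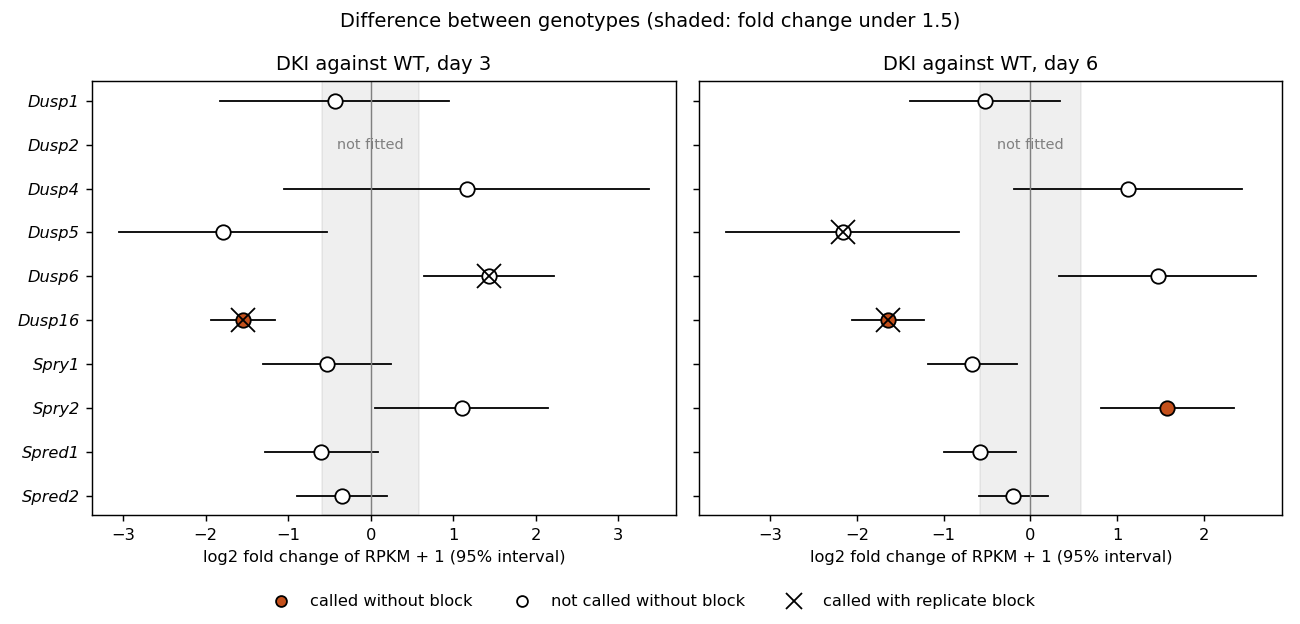
Log2 fold change of DKI against WT on days 3 and 6 for each gene, with its 95% interval. Filled points were called, crosses mark genes called when same-numbered libraries were paired, and the shaded band covers fold changes under 1.5. Dusp16 lies at -1.55 and -1.64 with short intervals, whereas the interval of Dusp4 on day 3 reaches from -1.05 to 3.38.

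The median log2 difference of the 9 fitted members was -0.44 on day 3 and -0.53 on day 6, against -0.11 and -0.17 for all fitted genes. Members lay on both sides of zero on both days. At an unadjusted p under 0.05, 4 of 9 members passed on day 3 and 6 of 9 on day 6, where 26.5 percent and 28.2 percent of all fitted genes did. These limma fits did not pair the libraries. With same-numbered libraries paired, 4 of 9 passed on day 3 and 8 of 9 on day 6. In the paired fits 2688 of 9740 and 3402 of 9842 genes passed.

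The change between day 0 and day 3 was larger than the difference between genotypes for several of these genes. Dusp1 fell from 108 to 148 RPKM in WT monocytes to 21.0 to 28.7 RPKM in WT MDCs, a log2 fold change of -2.39 (SE 0.18, adjusted p = 0.000182). Dusp2 fell from 14.7 to 39.5 RPKM to under 1 RPKM, by 3.82 on the log2 scale (SE 0.37, adjusted p = 0.000459). Spry2 fell from 7.64 to 14.7 RPKM to 0.394 to 2.32 RPKM (-2.42, SE 0.39, adjusted p = 0.0028). Spred1 rose from 14.4 to 29.0 RPKM to 68.0 to 120.8 RPKM (2.29, SE 0.32, adjusted p = 0.00165). Thus 3 of the 10 fitted members were called lower and 1 higher in WT, where 22.8 percent of 9938 genes were called lower and 20.3 percent higher. The handling-response sum also fell over this time, from 1993 to 4347 RPKM in the 6 day 0 libraries to at most 1842 RPKM on day 3. Its part in the fall of Dusp1 and Dusp2 was not tested.

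Dusp1, Dusp2, Spry2 and Spred1 were also called in DKI cells, and Dusp6 in addition. Whether Dusp6 differed from WT in this change is given by the interaction test. Dusp1 (-2.84, SE 0.57, adjusted p = 0.0118), Dusp2 (-3.31, SE 0.37, adjusted p = 0.00208) and Spry2 (-1.29, SE 0.40, adjusted p = 0.0443) fell, and Spred1 rose (1.64, SE 0.27, adjusted p = 0.0067). Dusp6 rose from 3.82, 8.57 and 20.1 RPKM to 58.0, 41.5 and 45.9 RPKM (2.31, SE 0.51, adjusted p = 0.0156), whereas in WT its change of 0.74 (SE 0.56, adjusted p = 0.303) was not called. Dusp16 went from 35.02, 12.1 and 16.1 RPKM to 8.99, 8.71 and 6.35 RPKM (-1.17, SE 0.38), and its adjusted p of 0.0523 missed the threshold. Of 9 fitted members, 3 were called lower and 2 higher in DKI, against 21.1 percent and 13.1 percent of 9922 genes. The Spry2 call was lost in several alternatives, for example with libraries centred on their median (-1.12, adjusted p = 0.0891), and the Dusp6 call without DKI day 0 replicate 2 (2.28, adjusted p = 0.0541). In WT, without day 0 replicate 1 Dusp16 was called higher on day 3 (0.82, adjusted p = 0.00507), and without day 0 replicate 2 Dusp5 was (0.88, adjusted p = 0.0232). In DKI, Dusp16 was called lower without day 0 replicate 2 (-1.47, adjusted p = 0.0439) and Dusp5 without day 3 replicate 1 (-1.95, adjusted p = 0.041). Dusp16 was also called lower there with a pseudocount of 0.1 RPKM (-1.248, adjusted p = 0.0496) and with all 18 libraries in one fit (-1.165, adjusted p = 0.0141).

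**Figure D4:**
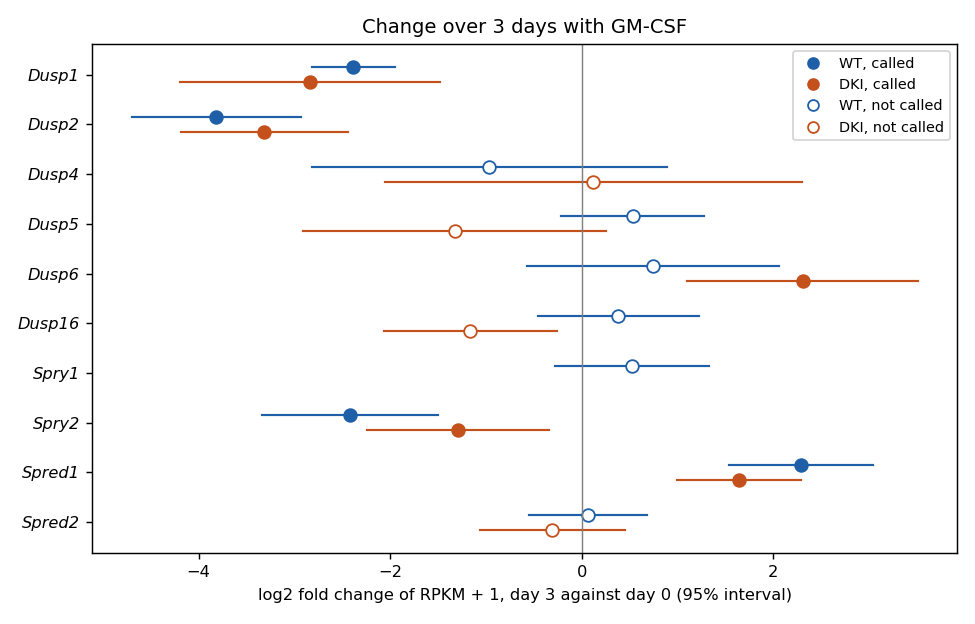
Log2 fold change from day 0 to day 3 for each gene in WT and DKI cells, with its 95% interval and filled points where called (Spry1 was not fitted in DKI). Dusp1, Dusp2 and Spry2 lie left of zero and Spred1 right of it in both genotypes, whereas Dusp4, Dusp5, Dusp16 and Spred2 have WT and DKI on opposite sides of zero, with none of these called.

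Whether the genotype difference itself changed with culture was tested as an interaction of genotype and day. Without pairing, 0 of the 10 members were called for day 3 against day 0, where 2.91 percent of 10212 genes were called, and 0 for day 6 against day 0, where 2.8 percent of 10353 genes were called. At an unadjusted p under 0.05, 2 and 3 of the 10 members passed in these limma fits, where 15.7 percent and 17.3 percent of all fitted genes did. The wide scatter among day 0 libraries entered those fits. When same-numbered libraries of a day were paired, Dusp6 (1.56, SE 0.23, adjusted p = 0.0129) and Dusp16 (-1.55, SE 0.14, adjusted p = 0.00356) were called for day 3, where 10.2 percent of all genes were called. For day 6, Dusp5 (-2.23, SE 0.47, adjusted p = 0.0321), Dusp16 (-1.64, SE 0.19, adjusted p = 0.00716) and Spry2 (1.60, SE 0.37, adjusted p = 0.0393) were called, where 13.5 percent of all genes were. In these paired limma fits 5 of 10 members for day 3 and 9 of 10 for day 6 had an unadjusted p under 0.05. Among all genes 3021 of 10212 and 3703 of 10353 had one. Scatter of both days entered the paired fits, and same-numbered libraries were closer on day 0 than on later days.

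Between day 3 and day 6 no change was called. In limma 0 of 8 fitted members were called in WT and 0 of 8 in DKI, with 0 of 8 at an unadjusted p under 0.05 in each. Among all genes 0 percent were called in both genotypes, with 722 of 9613 and 93 of 9540 at an unadjusted p under 0.05. These fits did not pair the libraries. With same-numbered libraries paired, again 0 of 8 members were called in each genotype and 0 of 8 had an unadjusted p under 0.05, while among all genes 0 percent were called and 1221 and 471 had one. The genotype difference did not change detectably between the 2 days either, with 0 of 9 members and 0 percent of 9985 genes called and 0 members and 89 genes at an unadjusted p under 0.05.

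The other genes of the pathway were examined from lists. Of 12 further DUSP, Sprouty, Spred and MAPK tyrosine phosphatase genes in the table, 6 were fitted on each day, and only Dusp7 was called, in the direction of higher levels in DKI, where 3.21 percent of all fitted genes were on day 3 and 2.72 percent on day 6. Dusp7, which encodes a cytoplasmic ERK phosphatase of the same subfamily as DUSP6, was at 9.35 ± 1.99 RPKM in WT against 24.6 ± 3.98 RPKM in DKI on day 3 (SD, n = 3). It was higher in DKI by 1.31 (SE 0.20, adjusted p = 0.0186) on day 3 and by 1.35 (SE 0.30, adjusted p = 0.0456) on day 6. Dusp3 was not called, with log2 differences of 0.68 and 0.96.

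In the cascade from RAS to ERK, 1 of 25 fitted genes was called in limma on day 3, in the direction of higher levels in DKI, where 3.21 percent of all genes were, and 0 of 25 on day 6. The called gene was Gab1, an adaptor that couples receptors to RAS, at 1.15 ± 0.29 RPKM in WT against 14.4 ± 12.3 RPKM in DKI on day 3 (2.57, SE 0.51, adjusted p = 0.0356). Gab1 passed the filter of 2 RPKM through its DKI mean alone, and its DKI libraries varied widely. In the JNK and p38 branch 2 of 12 fitted genes were called lower on day 3 and 1 of 12 on day 6, where 4.21 percent and 4.82 percent of all fitted genes were. These were Mapk13, which encodes the p38 delta kinase (29.7 ± 2.77 RPKM in WT against 5.41 ± 1.90 RPKM in DKI on day 3, log2 fold change -2.30, SE 0.23, adjusted p = 0.0069), and Mapkapk3, a kinase that p38 activates (-0.97 on day 3 and -1.03 on day 6).

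Transcripts that respond to ERK went in both directions. On day 3, 2 of 18 fitted genes were called lower, and on day 6, 2 of 17 were called lower and 2 higher. Of all fitted genes 4.21 percent were called lower on day 3, and 4.82 percent lower and 2.72 percent higher on day 6. Phlda1 was lower by -1.53 and -1.24 and Maff, a small MAF transcription factor, by -2.0015 and -1.73. Fos, a subunit of AP-1, was at 5.26 ± 3.497 RPKM in WT against 47.7 ± 20.4 RPKM in DKI on day 6 (3.03, SE 0.53, adjusted p = 0.0288), and Jun at 32.8 ± 4.49 and 82.5 ± 7.82 RPKM (1.31, SE 0.16, adjusted p = 0.0143). Both also belong to the handling-response list, of which they were the only 2 of 10 fitted genes called on day 6. Egr1 was not called, with 11.4 ± 7.51 RPKM in WT against 21.3 ± 20.0 RPKM in DKI on day 6.

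Of 10 genes of the GM-CSF receptor and STAT5 list, 5 were called lower in DKI on each day, where 4.21 percent and 4.82 percent of all fitted genes were. Socs2, a STAT5 target that restrains cytokine receptors, was lower by -4.14 and -4.30, Cish, another such target, by -2.28 and -2.47, Jak2 by -2.10 and -2.38 and Stat5a by -1.67 and -1.68. The fifth was Csf2rb2, which is a near copy of Csf2rb, so that reads could be split between them and its value is uncertain.

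**Figure D5:**
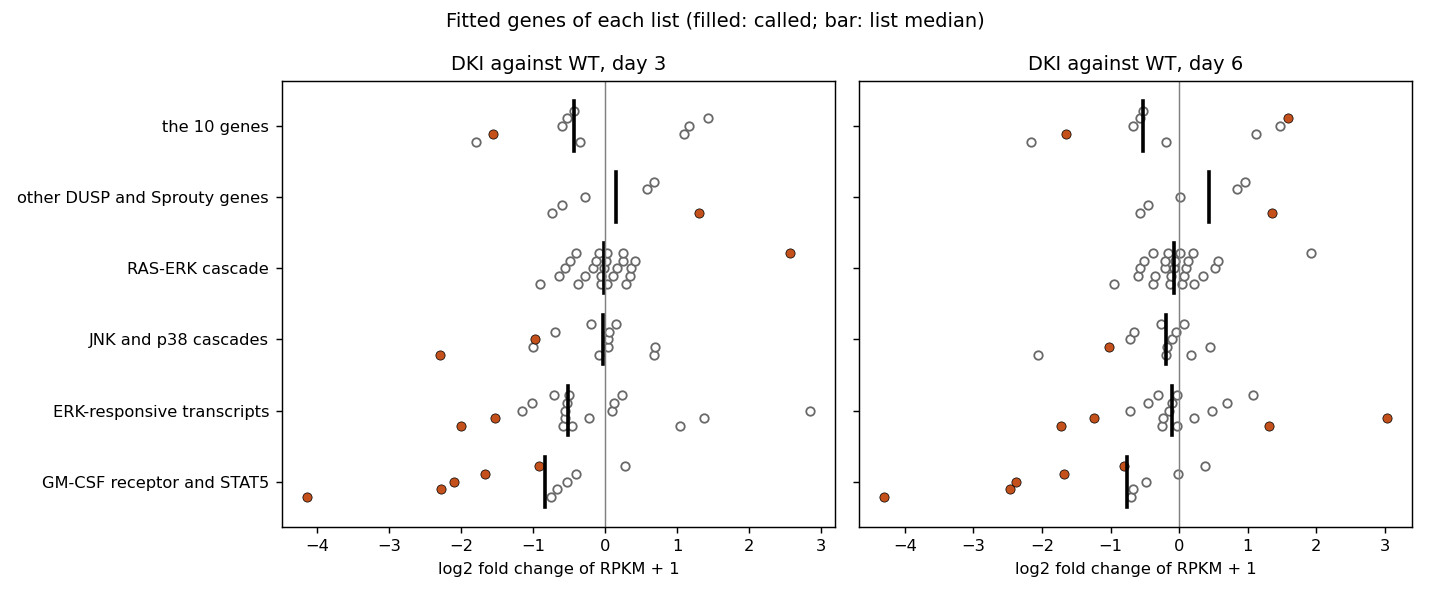
Log2 fold change of DKI against WT on days 3 and 6 for every fitted gene of the 10 genes and of 5 pathway lists, filled where called, with the list median as a bar. Among the RAS-ERK cascade genes Gab1 lies highest, at 2.57 on day 3, where it was called, and at 1.92 on day 6, where it was not, and 5 of 10 GM-CSF receptor and STAT5 genes were called lower on each day.

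Marker genes of differentiation moved with the genotype at the same times. For these marker counts, 4.21 percent of all fitted genes were called lower in DKI on day 3 and 4.82 percent on day 6, and 3.21 percent and 2.72 percent were called higher. Of the dendritic cell markers 8 of 13 fitted were called lower in DKI on day 3 and 9 of 14 on day 6, and their summed level was 21043 to 23722 RPKM in WT against 1767 to 6348 RPKM in DKI on day 3. On day 6 these sums were 15772 to 28061 RPKM in WT cultures and 2790 to 10156 RPKM in DKI cultures. Of 12 macrophage markers, 5 were called higher on day 3 and 4 on day 6, with sums of 555 to 1468 RPKM in WT against 3624 to 9074 RPKM in DKI on day 3. On day 6 the macrophage sums overlapped, with 541 to 3070 RPKM in WT cultures and 2388 to 10112 RPKM in DKI cultures. Of the monocyte and myeloid markers 1 of 7 fitted (Lyz2) was called higher on each day. B cell marker sums were at most 14.2 RPKM in any library, with 2 of 8 markers at 0 in every DKI library of day 3. Erythroid marker sums were at most 0.113 RPKM in any MDC library, with 4 or 5 of 6 markers at 0 in every library of a group. The part of these cells in the differences of the phosphatase and Sprouty genes was not tested.

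For the members called between genotypes, the genes of most similar pattern were sought over the 18 libraries among 10417 genes, by Pearson's r on the log2 scale. They were Trit1 (r = 0.9235), Maff (0.9037) and Plpbp (0.9015) for Dusp16, and Slc8b1 (0.956), Tle4 (0.9518) and Pik3c2a (0.9498) for Spry2. The 18 points share days, genotypes and library numbers, so r is given as a description. Among the members, Dusp6 and Dusp16 had r = -0.766 and Dusp1 and Dusp2 had r = 0.864.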

How the data were processed

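RNA from 18 libraries (6 groups of 3) was sequenced as single-end reads. According to the study's methods and labels, the authors aligned reads to mm10 with Subread, counted them per RefSeq gene with featureCounts and deposited the values as RPKM. Tool versions, the strand setting and the treatment of reads with several matches are not given in the sources used here. The deposited RPKM values were analysed as log2(RPKM + 1), a pseudocount of 1, with limma 3.58.1 in R 4.3.3 (lmFit, then eBayes with trend). Counts were not used, so limma took the place of the count-based test in the study. Genes with a mean above 2 RPKM in at least one compared group were fitted, p-values were adjusted by Benjamini-Hochberg over all of them, and a call needed an adjusted p below 0.05 with a change of over 1.5-fold. Before use, the fit was run on simulated data with the genes and libraries of the day 3 comparison. That simulation gave every gene the same scatter and no pairing. It therefore does not test the fit for genes of unequal scatter or for paired libraries.

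Groups came from the labels. The 3 libraries of a group are independent experiments. The replicate numbers pair the samples between genotypes: the deviations of same-numbered WT and DKI libraries correlated in every pair, with r of 0.686 to 0.865 on day 0, 0.163 to 0.369 on day 3 and 0.338 to 0.413 on day 6. They also pair day 3 with day 6, with r of 0.125 to 0.68 in WT and 0.32 to 0.743 in DKI, but not day 0 with day 3. Main fits had no block, and values with the replicate block are given where they change a call. Where interaction fits were blocked, the block paired same-numbered libraries within a day. Library names carry a year, the earlier one for replicate 1 of days 3 and 6 and the later one for all others. This splits both genotypes equally within a day, whereas day 0 holds the later year only, so that year and day cannot be fully told apart.

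Depth was estimated from 1126 receptor genes in which low values should be whole reads: 207 of 209 such values (99.04%) were whole within 0.1 read. The median was 36450000 reads, and intervals cover the spread between libraries. Promoter windows came from RefSeq, and 20082 of the table's gene identifiers matched the RefSeq table. Alternatives were the pseudocount (0.1 RPKM), no filter, median centring, quantile normalization, all 18 libraries in one fit, eBayes without trend, the replicate block, each library left out in turn and only libraries named for the later year. Named genes are the 10 members, up to 4 called genes of largest change from each list, members of lists used for comparison, and the 3 genes most similar to each member called between genotypes. Dusp3 and Egr1 were chosen after their values were seen. Members and lists were chosen with earlier results of these data known. Figures were drawn with matplotlib 3.10.9.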

Additional observations from a re-analysis of the deposited data

Results flagged for a closer look

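With same-numbered libraries of a day paired, the difference between DKI and WT changed between day 0 and later days for 4 genes by the interaction test in limma. Of all genes 10.2 percent were called in that paired fit for day 3 and 13.5 percent for day 6. Against day 0, the log2 difference on day 3 was higher by 1.56 for Dusp6 (SE 0.23, adjusted p = 0.0129) and lower for Dusp16, at -1.55 (SE 0.14, adjusted p = 0.00356). Against day 0, the log2 difference on day 6 was lower for Dusp5, at -2.23 (SE 0.47, adjusted p = 0.0321), and for Dusp16, at -1.64 (SE 0.19, adjusted p = 0.00716), and higher by 1.60 for Spry2 (SE 0.37, adjusted p = 0.0393). None of the 5 was called without pairing. Scatter of both days entered the paired interaction fits, and same-numbered libraries were closer on day 0 than on later days. In the paired limma fit of day 6 alone, the difference of Spry2 was not called (adjusted p = 0.0621).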

How the results depend on the processing

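Counts of called members were recomputed 157 times and stayed within 1.5 times of the reported count in 144. Many of these were recounts of 0 members. Among them, 0 percent of all genes were called between genotypes on day 0 and between days 3 and 6. Agreement in those comparisons was nearly fixed in advance and says little about the counts that were not 0. The day 3 count of 1 between DKI and WT became 2 with quantile normalization, 2 with the replicate block and 3 with only libraries named for the later year, and ranged from 1 to 3 on leaving out single libraries. Over all genes the 723 calls of day 3 became 795, 551 and 369 in these settings in turn, and 197 to 715 on leaving out single libraries. The day 6 count of 2 became 3 with all 18 libraries in one fit, where Dusp5 was called too (-2.166, adjusted p = 0.0246), 1 with no filter and 0 with only libraries named for the later year, and ranged from 1 to 2 on leaving out single libraries. Over all genes the 742 calls of day 6 became 1573, 187 and 38 in these settings in turn, and 90 to 984 on leaving out single libraries. Pairing by the replicate block raised the interaction counts from 0 to 2 for day 3 and from 0 to 3 for day 6, both against day 0. Beyond the block values given for Dusp5, Dusp6 and Spry2, it changed no other call of a member between genotypes. Of 857 values of single members in the comparisons between genotypes and between days, interaction fits not counted, 16 lost a call, 16 gained one and 0 called values changed direction. In 64 more the sign changed where neither fit called the gene. For Dusp6 on day 3, called with quantile normalization (adjusted p = 0.0483), without WT replicate 1 (0.0476) and with only libraries named for the later year (0.0488), adjusted p ranged from 0.0363 to 0.144 over 14 alternatives. Without pairing, the interval of a gene as variable as Dusp4 is wide, and low genes such as Dusp2 in MDCs rest on few reads.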
